A study of Mus musculus with 12 samples.

Results

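Myelin and mature oligodendrocyte genes were examined in the ventral hippocampus of male C57BL/6 mice after chronic oral treatment with corticosterone (CORT), which is the chief glucocorticoid of rodents. The members were 38 genes listed by symbol for their part in myelin structure, in the synthesis of myelin lipids and in the maturation of oligodendrocytes. Of these, 37 were among the 17564 genes with values in both genotypes, and Cldn14 was not analysed here. The study set wild-type (WT) mice against mice heterozygous for the Met-coding variant of the gene for brain-derived neurotrophic factor (BDNF het-Met). From 2 months of age, mice of each genotype received either CORT at 25 mg/l in 1% ethanol or vehicle (VEH), which was 1% ethanol alone, for 6 weeks. This gave 4 groups, VEH and CORT in each genotype, with 3 RNA-seq libraries per group or 12 libraries in all, and each library held RNA pooled from 2 animals. The question was what CORT did to these genes within each genotype, and whether that effect differed between genotypes.

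All values were taken from the fit that the authors made across libraries, with 1 log2 fold change per gene and genotype. No value of a library by itself was analysed here, the depth of each library is unknown, and replicate spread enters through the standard error (SE) of each fold change. Positive log2 fold changes are those of genes higher under CORT. This direction follows the names of the comparisons, and 5 genes that glucocorticoids are known to raise were read as a check on it, chosen with their values in view. Plin4, a lipid droplet protein gene, was higher by 1.52 ± 0.395 (SE) in WT mice, with 1.70 ± 0.301 in the BDNF het-Met genotype. Fkbp5, a co-chaperone of the glucocorticoid receptor, was higher by 0.21 ± 0.0868 and 0.43 ± 0.0770. Pdk4 was at 0.11 and 0.13 and Sgk1 at -0.11 and -0.023, without passing the uncorrected threshold of 0.05, whereas Tsc22d3 passed it in WT mice in the lower direction, at -0.26 ± 0.113.

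Myelin is the stack of membrane that oligodendrocytes wrap around axons, and it speeds the conduction of nerve impulses. Its compact layers are held together by proteins such as myelin basic protein, its lipids are rich in galactosylceramide and sulfatide, and its innermost and outermost surfaces carry adhesion proteins that face the axon and the surroundings. Oligodendrocytes arise from precursor cells that persist in the adult brain, and they carry the glucocorticoid receptor. In bulk tissue, fewer oligodendrocytes and less of an RNA per oligodendrocyte cannot be told apart.

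The measured members lie on 16 chromosomes, and most were abundant in the tissue. Per kb of exon, 30 of the 37 lay above the median of all genes, and the median level of the members was 3.71 log2 CPM per kb compared with 1.96 for all genes. Mbp, which encodes myelin basic protein, had the highest level at 7.41, followed by Enpp2 at 6.92, Mobp at 6.16, Car2 at 5.97, Mal at 5.95 and Cnp at 5.89. The lowest were Aspa at 1.12, Tmem125 at 0.86 and Klk6 at -1.65 log2 CPM per kb. These levels are means over all libraries and carry no spread, so it cannot be said which neighbours in this order differed.

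Under CORT, more of these genes were lower than their share among all genes in the BDNF het-Met genotype, while in WT mice a lone member passed the threshold. In BDNF het-Met mice 14 of 37 members (37.8%) were lower at an uncorrected p below 0.05, compared with 6.64% of all genes, and none was higher, compared with 6.55% of all genes. With the further requirement of a fold change above 1.3, which is the rule of the study for a differentially expressed gene (DEG), 11 members were lower, compared with 2.52% of all genes. In WT mice 1 member passed the p threshold, compared with 3.83% of all genes, and 0 were DEGs, compared with 1.25% of all genes. All members rest on the same libraries and are not independent replicates, so these counts are not counts of separate results. Members had a median log2 fold change of -0.30 under the BDNF het-Met genotype and of -0.07 under WT, where the medians of all genes were -0.006 and -0.003. No gene, and so no member, passed a limma p adjusted over all 17564 genes in either genotype, and the smallest adjusted p of a member was 0.143, for Car2 in BDNF het-Met mice. Calls below are therefore by the uncorrected threshold, and the p printed beside them is the adjusted one.

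**Figure D1:**
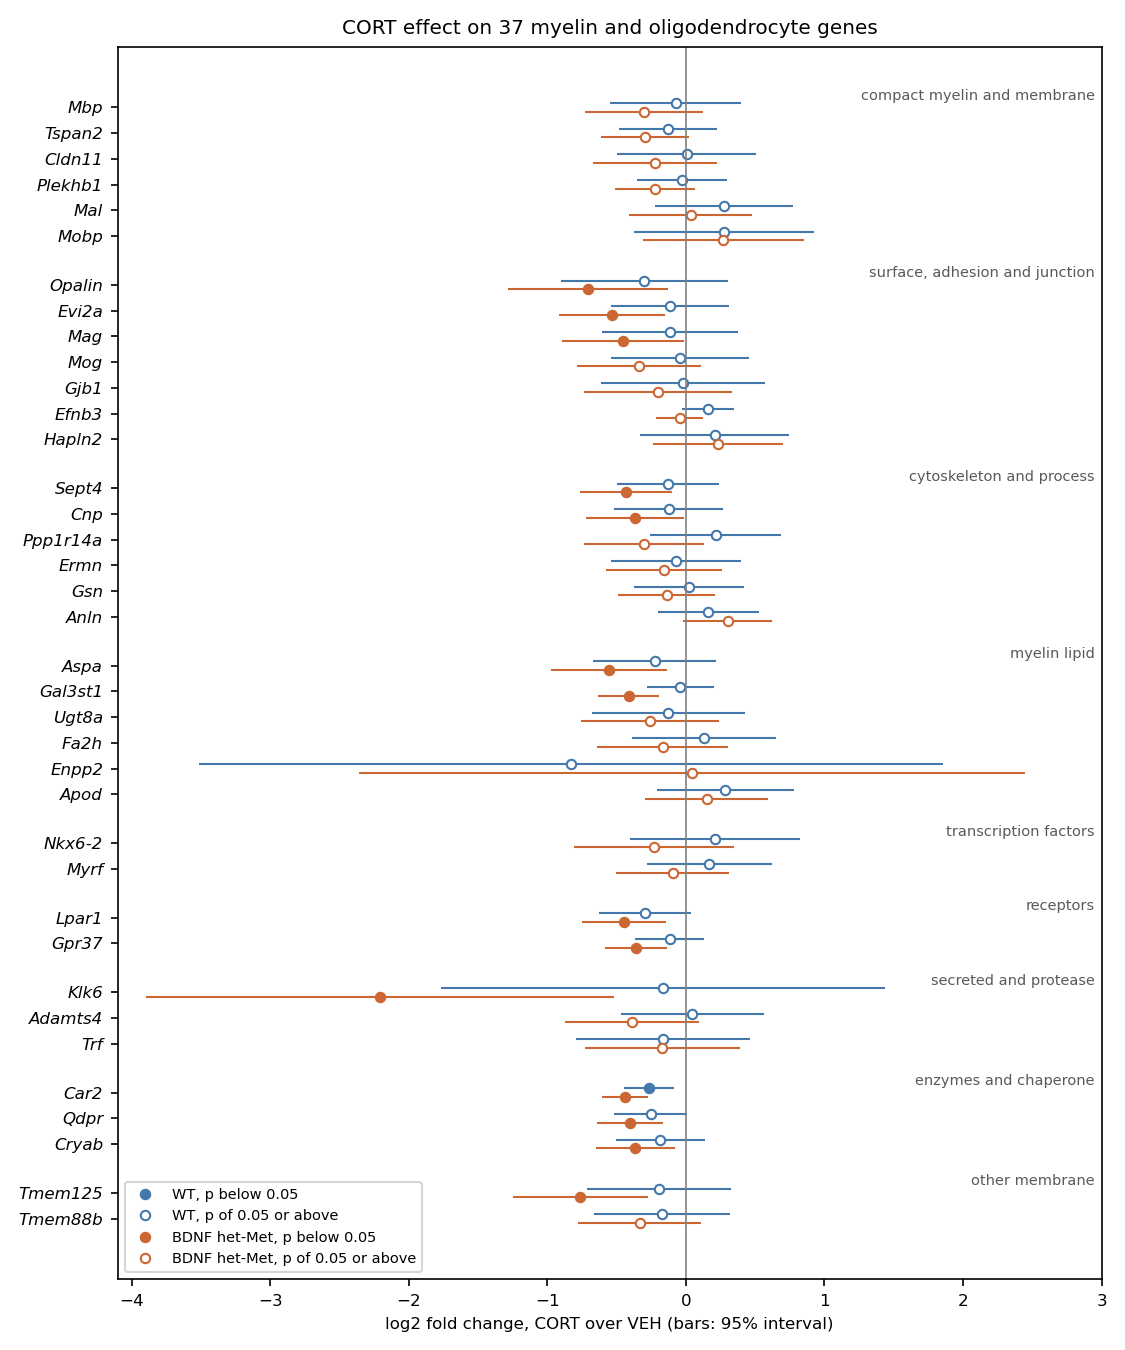
Log2 fold change of CORT over VEH (x axis) for the 37 members, grouped by role, with blue points for WT and orange points for BDNF het-Met mice, bars for the 95% interval and filled points for an uncorrected p below 0.05. In BDNF het-Met mice 14 points are filled, all left of 0, and in WT mice the only filled point is Car2.

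Of the enzymes and the chaperone of the oligodendrocyte cytoplasm, 3 of 3 members were lower past the p threshold in BDNF het-Met mice. The share of all genes lower past it there was 6.64%. Car2 (chr3:14886273-14900770, GRCm38), which encodes the carbonic anhydrase of oligodendrocytes and the choroid plexus, fell by 0.44 ± 0.0746 (SE; 95% interval -0.60 to -0.28; adjusted p = 0.143 by limma), a change of -26.3%. It ranked 13 among all genes by p in that genotype. In WT mice Car2 fell by 0.27 ± 0.0834 (interval -0.45 to -0.08; adjusted p = 0.999 by limma), the only member past the p threshold there. Qdpr (chr5:45434021-45450236), which regenerates the cofactor tetrahydrobiopterin, fell by 0.40 ± 0.107 in BDNF het-Met mice (adjusted p = 0.264 by limma) and stood at -0.25 ± 0.120 in WT mice, where it did not pass. Cryab, a small heat shock protein, fell by 0.36 ± 0.129 (adjusted p = 0.297 by limma) and was at -0.18 ± 0.145 in WT mice, without passing. All 3 genes had negative values in both genotypes, and the 95% intervals of each gene overlapped between genotypes.

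Both receptors of the list were also lower past the threshold in BDNF het-Met mice, compared with 6.64% of all genes. Lpar1 (chr4:58435255-58553898), a receptor for lysophosphatidic acid, fell by 0.45 ± 0.138 (adjusted p = 0.268 by limma), and Gpr37 (chr6:25665878-25690729), a G protein-coupled receptor of maturing oligodendrocytes, fell by 0.36 ± 0.101 (adjusted p = 0.264). Gpr37 lay just under the fold change of 1.3. In WT mice Lpar1 was at -0.29 ± 0.152 and Gpr37 at -0.12 ± 0.113, neither past the threshold.

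Of 7 measured surface, adhesion and junction genes, 3 were lower past the threshold in BDNF het-Met mice, compared with 6.64% of all genes. Opalin (chr19:41061710-41077113), a sialylated membrane protein of mature oligodendrocytes, fell by 0.70 ± 0.262, a change of -38.6% (adjusted p = 0.305 by limma). Evi2a (chr11:79526560-79530609), a membrane protein gene that lies within an intron of Nf1, fell by 0.53 ± 0.173 (adjusted p = 0.277). Mag (chr7:30899176-30914873), the myelin-associated glycoprotein that faces the axon, fell by 0.45 ± 0.200, with an interval of -0.89 to -0.01 that ended near 0 (adjusted p = 0.368). Mog, the myelin oligodendrocyte glycoprotein of the outermost layer, had a value of -0.34 ± 0.205 that did not pass (adjusted p = 0.507). Values in WT mice were -0.30 for Opalin, -0.11 for Evi2a, -0.11 for Mag and -0.045 for Mog. The remaining members of this group did not pass in BDNF het-Met mice, where the gap junction gene Gjb1 was at -0.20 ± 0.242, the ephrin gene Efnb3 at -0.046 ± 0.0759 and the node matrix gene Hapln2 at 0.23 ± 0.213. Evi2a shares 442 exon bases with the overlapping gene model Evi2 on the same strand, so its reads are uncertain.

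Genes of the cytoskeleton and of process formation were split. Sept4 (chr11:87568903-87590539), a septin, fell by 0.43 ± 0.150 in BDNF het-Met mice (adjusted p = 0.289 by limma), and Cnp (chr11:100574904-100591729), the cyclic nucleotide phosphodiesterase that keeps cytoplasmic channels of myelin open, fell by 0.37 ± 0.160 (adjusted p = 0.362), under the fold change of 1.3. Their values in WT mice were -0.13 and -0.12. Ermn, Gsn and Ppp1r14a had values of -0.16, -0.14 and -0.30 in BDNF het-Met mice, without passing. Anln, an actin-binding scaffold that assembles septin filaments in myelin, had the highest value of all members there at 0.30 ± 0.146 (adjusted p = 0.404), which did not pass and had the opposite sign to Sept4.

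Among myelin lipid genes, Gal3st1 (chr11:3983636-3999326), which encodes the sulfotransferase that makes sulfatide, fell by 0.41 ± 0.100 in BDNF het-Met mice, a change of -24.9% (adjusted p = 0.254 by limma). Its value in WT mice was -0.042 ± 0.110. Aspa (chr11:73304992-73329596), the aspartoacylase that frees acetate from N-acetylaspartate for lipid synthesis, fell by 0.55 ± 0.190 (adjusted p = 0.289), and was at -0.23 ± 0.200 in WT mice. Ugt8a, the galactosyltransferase that acts just before the sulfotransferase, was at -0.26 ± 0.226 and Fa2h, which hydroxylates the fatty acids of these lipids, at -0.17 ± 0.214 in BDNF het-Met mice, and neither passed. Apod, a lipid carrier, was at 0.15 ± 0.200. In all, 2 of the 6 genes in this group were lower past the threshold in BDNF het-Met mice, compared with 6.64% of all genes.

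Of the secreted proteins and proteases, Klk6 (chr7:43824499-43832030), a kallikrein protease of mature oligodendrocytes, had the lowest value of all members, -2.21 ± 0.767 in BDNF het-Met mice (adjusted p = 0.290 by limma). Its interval ran from -3.90 to -0.52, its mean expression was the lowest of the members at -1.05 log2 CPM, and its value in WT mice was -0.17 ± 0.728. The aggrecanase gene Adamts4 was at -0.39 ± 0.219 and the transferrin gene Trf at -0.17 ± 0.255 in BDNF het-Met mice, without passing. Trf shares 2108 exon bases with another gene model on the same strand, so reads could be split between them. Of the other membrane proteins, Tmem125 (chr4:118540941-118544044) fell by 0.76 ± 0.221, a change of -41.0% (adjusted p = 0.264), the second lowest value among the members, and Tmem88b was at -0.33 ± 0.201.

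The genes of compact myelin itself did not pass the threshold in either genotype. Mbp was at -0.30 ± 0.192 in BDNF het-Met mice (interval -0.73 to 0.12; adjusted p = 0.528 by limma), and its WT value was -0.07 ± 0.215. Mobp, which encodes an abundant basic protein of the same layer, was at 0.27 ± 0.263 and 0.28 ± 0.294, so its point values were positive in both genotypes. Tspan2, Cldn11 and Plekhb1 were at -0.29, -0.22 and -0.22 in BDNF het-Met mice, and Mal at 0.035. With these errors a change of 0.42 for Mbp and of 0.58 for Mobp would have been needed to pass in BDNF het-Met mice, so smaller changes of these genes were not detectable. The transcription factors did not pass either. Myrf, which drives myelin gene expression and lies at chr19:10208272-10240748, had a BDNF het-Met value of -0.096 ± 0.186 and a WT value of 0.17 ± 0.205, and Nkx6-2 was at -0.23 and 0.21.

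The promoters of members that were lower in BDNF het-Met mice are shown for the 4 genes whose promoter held 2 of 5 motif spellings searched. The spellings were ACANNNTGT, the core of the palindromic glucocorticoid response element, ACAAAG and ACAATG, which SOX factors bind, and CTGGCAC and CTGGTAC, which MYRF binds, each on both strands of the 250 bases before a RefSeq start on GRCm38.p6. Of the measured members, 27 had 44 promoters in the RefSeq table. Bases that the GENCODE annotation places in an exon were left off, and capitals mark the motif matches, none of which overlap. The strand given is that of the gene, and each sequence runs 5′ to 3′ towards the start.
Cnp, chr11:100574689-100574903, plus strand: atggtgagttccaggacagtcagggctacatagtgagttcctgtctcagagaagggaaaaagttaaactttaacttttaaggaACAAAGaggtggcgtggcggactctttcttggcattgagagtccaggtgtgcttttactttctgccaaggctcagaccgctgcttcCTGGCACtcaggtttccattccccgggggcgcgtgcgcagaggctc
Klk6, chr7:43824294-43824498, plus strand: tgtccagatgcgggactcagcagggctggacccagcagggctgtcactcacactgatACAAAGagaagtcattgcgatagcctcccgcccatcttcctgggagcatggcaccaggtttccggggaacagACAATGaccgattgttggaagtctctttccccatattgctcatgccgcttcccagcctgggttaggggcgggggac
Lpar1, chr4:58499404-58499653, minus strand: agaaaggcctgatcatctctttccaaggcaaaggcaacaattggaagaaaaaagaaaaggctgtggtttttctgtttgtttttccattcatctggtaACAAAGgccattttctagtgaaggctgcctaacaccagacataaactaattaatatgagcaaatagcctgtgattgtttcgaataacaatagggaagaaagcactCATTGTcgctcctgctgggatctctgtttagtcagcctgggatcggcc
Mag, chr7:30914874-30915113, minus strand: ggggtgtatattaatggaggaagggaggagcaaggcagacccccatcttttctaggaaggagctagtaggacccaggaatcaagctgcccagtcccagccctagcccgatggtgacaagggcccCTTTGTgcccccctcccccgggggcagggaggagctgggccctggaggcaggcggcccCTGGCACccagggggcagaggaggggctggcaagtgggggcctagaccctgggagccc

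In Cnp and Mag a SOX spelling and the MYRF spelling CTGGCAC stand together, at -167 and -81 bases from the start in Cnp and at -126 and -68 in Mag, counting the first base of each match. Klk6 and Lpar1 hold both SOX spellings and no MYRF spelling in the windows shown. Across the 44 member promoters, ACAAAG was found in 14 (31.8%) compared with 16.5% of 32851 promoters of all genes, ACAATG in 18.2% compared with 10.7%, and CTGGCAC in 11.4% compared with 4.19%. The glucocorticoid core was found in 6.82% compared with 5.84%, in 3 genes (Mag, Plekhb1 and Sept4), and CTGGTAC in 2.27% compared with 1.83%. A match describes letters in these windows and not a bound site, and promoters of the same gene overlap in part. Cryab, Myrf, Evi2a, Adamts4, Fa2h, Car2, Efnb3, Enpp2 and Trf were among those without an entry.

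Values averaged over genotypes, with equal weight to each, rested on all 4 groups. A negative average at an uncorrected p below 0.05 was found for 12 members, compared with 6.18% of all genes. A positive average past the threshold was found for 0 members, compared with 1259 of all 17564 genes. Car2 had the smallest p of the members, with an average of -0.35 ± 0.0559 that ranked 17 among all genes by p. Its p adjusted over all genes was 0.0618 and missed the threshold of 0.05, which 13 genes (0.074%) passed, none of them a member. Qdpr averaged -0.33 ± 0.0803, Lpar1 -0.37 ± 0.102, Gpr37 -0.24 ± 0.0758 and Gal3st1 -0.23 ± 0.0743, with p-values of 0.197, 0.214, 0.249 and 0.254 computed from the fold changes and SEs of both genotypes and adjusted over all genes. The others past the threshold were Tmem125, Cryab, Aspa, Opalin, Sept4, Evi2a and Klk6. With the ordinary SE in place of the moderated one 6 members passed, and Aspa, Opalin, Sept4, Evi2a and Klk6 were among those that did not. The share of all genes with the ordinary SE was not computed. Compared with the BDNF het-Met calls, Cnp and Mag dropped out, at averages of -0.25 ± 0.120 and -0.28 ± 0.150. In the joint F test of the limma fit over all contrasts, 9 members passed an uncorrected p of 0.05, compared with 7.43% of all genes. This F covers 3 contrasts and is not a test of the CORT effects alone.

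The larger count in BDNF het-Met mice was set against a test of the difference between genotypes. Of the 37 members, 34 had a more negative value in BDNF het-Met than in WT mice, where 51.2% of all genes did. The difference of the CORT effect itself passed an uncorrected p of 0.05 for 1 member, compared with 2.41% of all genes. That member was Gal3st1, at -0.37 ± 0.149 (BDNF het-Met minus WT; interval -0.70 to -0.04), and no gene passed after adjustment over all genes. The next members in order were Klk6 at -2.04 ± 1.06, Ppp1r14a at -0.52 ± 0.290, Efnb3 at -0.20 ± 0.114 and Tmem125 at -0.57 ± 0.323, none past the uncorrected threshold. For 32 of 37 members the WT interval held that gene's own BDNF het-Met value, and for 25 it held a fall by a fold of 1.3. A call in BDNF het-Met mice and none in WT mice was therefore not shown to be a difference between genotypes, and the count of 1 member (2.7%) is near the share of all genes.

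**Figure D2:**
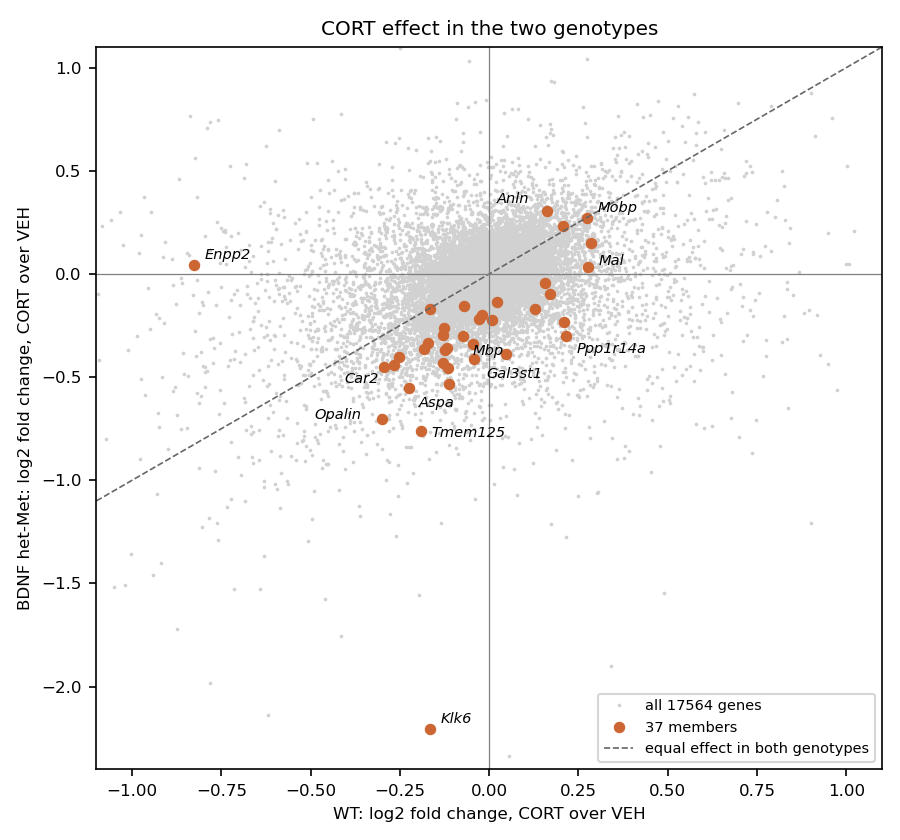
Log2 fold change of CORT over VEH in WT mice (x axis) against that in BDNF het-Met mice (y axis), with grey points for all genes and orange points for the members; 54 genes lie outside the axes. Of the members, 34 of 37 lie below the diagonal of equal effects, 23 are below 0 on both axes and 5 above 0 on both.

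Within the list, members kept a part of their order between genotypes. Values were negative in both genotypes for 23 members, positive in both for 5 (Mobp, Hapln2, Anln, Apod and Mal), positive in WT and negative in BDNF het-Met mice for 8, and the reverse for Enpp2. Across the 37 genes the correlation of both effects was r = 0.365 (Spearman rho = 0.651), and without Klk6 and Enpp2, left out after their wide errors were seen, it was r = 0.791 over 35 genes. Across all genes r was 0.298 with no gene left out, so its counterpart among members is 0.365 and not 0.791. The rank correlation over all genes was not computed. Genes are not independent replicates, and both effects came from the same fit with a shared spread, although no library is common to both comparisons.

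Members were measured less precisely than other genes of like expression. Their median SE was 0.196 for the BDNF het-Met and 0.215 for the WT effect, compared with 0.0898 and 0.102 over all genes. Ranked among genes of the same expression, in 20 bins, 32 of 37 members had an SE at or above the 90th percentile in BDNF het-Met mice, with a median percentile of 97.4. The exceptions included Gal3st1 at the 38.8th percentile and Car2 and Efnb3 near the 83rd. A member of median error needed a log2 change of 0.431 (BDNF het-Met) or 0.473 (WT) to pass, compared with 0.198 and 0.224 for all genes. The WT errors were larger by a median ratio of 1.12 over all genes, and the fit lists 7 residual degrees of freedom where 12 libraries in 4 groups leave 8. WT groups of 2 and 3 libraries would give a ratio of 1.118, but whether a library was out of the fit is not given in the sources used here.

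**Figure D3:**
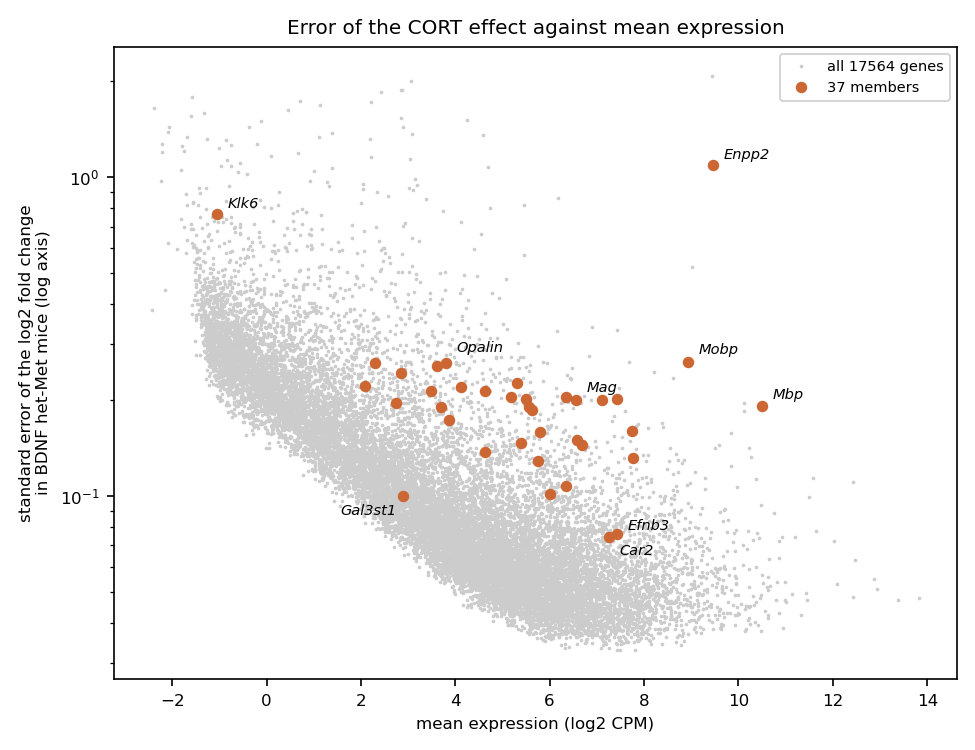
Standard error of the log2 fold change in BDNF het-Met mice (y axis, log scale) against mean expression in log2 CPM (x axis), with grey points for all 17564 genes and orange points for the 37 members. Most members lie above the band of genes of like expression, and Car2, Efnb3 and Gal3st1 lie within or close to it.

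The most abundant members held no larger share of the calls. Past the threshold in BDNF het-Met mice were 4 of the 12 members with the highest level per kb and 10 of the other 25. Of all genes at any level, 6.64% were lower past it there, and the share at a like level was not computed. Both counts are small. Their median log2 fold changes there were -0.22 and -0.33, and their median SEs 0.176 and 0.200.

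Of 26 further genes of myelin and the oligodendrocyte lineage, 22 had negative values in BDNF het-Met mice, with a median of -0.14. Of all 17564 genes, 9095 were negative there. Past the p threshold 9 were lower, compared with 6.64% of all genes, and 0 higher, compared with 6.55%. In WT mice 16 had negative values, with a median of -0.05, where 8973 of all genes were negative. Past the threshold 2 were lower and 0 higher in WT mice, compared with 276 and 396 of all genes. Enpp6, a choline phosphodiesterase of newly forming oligodendrocytes, fell in both genotypes, by 0.80 ± 0.283 (WT) and by 1.23 ± 0.264 (BDNF het-Met). Pmp22, a membrane protein gene, also fell in both, by 0.37 ± 0.159 and 0.50 ± 0.140. The others lower in BDNF het-Met mice were Pllp (-0.60), Bcas1 (-0.46), Cd9 (-0.45), Sirt2 (-0.27), Olig2 (-0.26), Olig1 (-0.21) and Tubb4a (-0.15). Sox10, the lineage transcription factor, was at -0.23 ± 0.136 and did not pass.

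Among 7 precursor markers, 3 were lower and 1 higher past the threshold under BDNF het-Met, and 2 lower and 1 higher under WT, with medians of 0.05 and 0.04. Of all genes, 6.64% were lower and 6.55% higher past it under BDNF het-Met, and 3.83% passed in either direction under WT. Pdgfra, the receptor that defines precursors, was at 0.09 and 0.05, and Vcan at 0.04 and 0.08, without passing. Gpr17, which marks committed precursors, and C1ql1 were lower past the threshold in both genotypes, at -0.35 and -0.53 for Gpr17 and -0.26 and -0.36 for C1ql1. Lhfpl3 was lower in BDNF het-Met mice at -0.32, whereas Tnr was higher there at 0.21 and Cspg4 higher in WT mice at 0.12.

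Markers of other cells in the tissue moved with these genes to differing degrees. For the counts that follow, 6.64% of all genes were lower and 6.55% higher past the threshold under BDNF het-Met, and 3.83% passed under WT. All 8 microglia markers were negative in both genotypes, with medians of -0.22 and -0.43. The threshold was passed by 6 of them under BDNF het-Met and by 0 under WT. In the difference between genotypes 0 of the 8 passed it, compared with 2.41% of all genes. Trem2 was at -0.78, Aif1 at -0.65 and P2ry12 at -0.61 in BDNF het-Met mice. Among 7 astrocyte markers, Gfap (-0.71), S100b (-0.28) and Gja1 (-0.25) were lower in BDNF het-Met mice, while Aldoc (0.27 and 0.25) and Aldh1l1 (0.25 and 0.19) were higher in both genotypes. The 5 endothelial markers had medians of -0.06 and 0.04 with none past the threshold, and the 5 neuron markers medians of 0.02 and 0.07, with Map2 higher in both. The 5 thalamus markers had medians of -0.09 and -0.13. Of these only Tcf7l2 passed in BDNF het-Met mice, lower at -0.35 ± 0.160, and its WT value was 0.23 ± 0.169. The difference of Tcf7l2 between genotypes was -0.58 ± 0.233, past the uncorrected threshold but not after adjustment over all genes. Ramp3 (-0.41), Prkcd (-0.13), Rora (-0.11) and Slc17a6 (0.004) did not pass in BDNF het-Met mice. Which cells carried the values of Tcf7l2 was not tested. The part of these markers in the falls of the members was not tested.

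**Figure D4:**
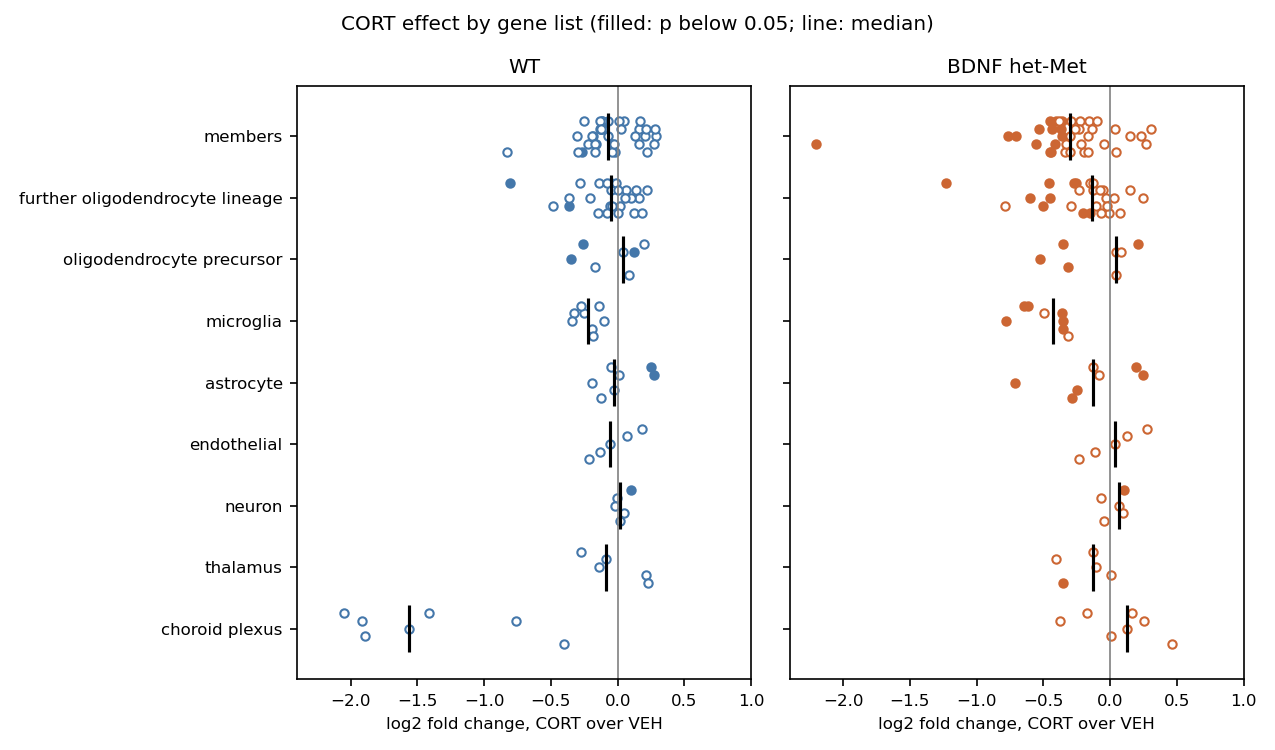
Log2 fold change of CORT over VEH (x axis) for each gene of the members and of the other lists, in WT mice (left) and BDNF het-Met mice (right), with filled points for an uncorrected p below 0.05 and a bar at each list's median. The members have medians of -0.07 and -0.30, microglia markers -0.22 and -0.43, and choroid plexus markers -1.57 and 0.13.

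Enpp2, which encodes autotaxin, stood apart from the other members in its error. Its WT value was -0.83 ± 1.22 and its BDNF het-Met value 0.043 ± 1.09, and a change smaller than 2.40 could not have passed in the latter. Enpp2 is also a gene of the choroid plexus. Of the 7 markers of that tissue, 7 were negative under WT (median -1.57) and 2 under BDNF het-Met (median 0.13), at median SEs of 1.80 and 1.72, and none passed the threshold. Ttr, its most abundant marker, had a mean expression of 9.44 log2 CPM and was at -1.91 ± 2.33 and -0.37 ± 2.08. The part of choroid plexus tissue in the value of Enpp2 was not tested. Among the other members Car2 is expressed there too, and its SE was 0.0746 in BDNF het-Met mice. The part of choroid plexus tissue in the value of Car2 or of any further member was not tested either.

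Overlaps with other genes bear on a few further members, since whether reads were counted by strand is not given in the sources used here. On the opposite strand Cryab shares 252 exon bases with Hspb2, Cnp 154 with Dnajc7, Nkx6-2 246 with Inpp5a and Qdpr 332 with an antisense gene model. Of these partners, Dnajc7 was expressed at 7.06 log2 CPM. Cnp, Cryab and Qdpr, which had calls in BDNF het-Met mice, are uncertain in this respect. Mbp transcripts share stretches of at most 78 bases, at 98% identity or more, with transcripts of 42 other genes. The exons of Mbp hold 8469 bases, and only reads within such stretches could have been assigned elsewhere. The share of such reads was not computed.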

How the data were processed

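RNA-seq libraries of the ventral hippocampus were prepared from total RNA with a stranded kit, per the labels. The authors aligned reads to GRCm38 (mm10) with STAR, counted genes with featureCounts and fitted a limma-voom model. The deposited log2 values are mean expression, log2 fold changes and their ordinary standard errors, the deposited p-values are uncorrected, adjusted and joint, and the deposited scores are the moderated t and the joint F. These columns of the authors' own comparisons, in 2 tables of 17564 genes, were the values used, as they carry the effect per genotype. Tool versions, normalization factors, the filter on weak genes and the handling of multi-mapping reads were not given in the sources used here.

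Fold changes are listed as VEH minus CORT, so their sign was turned. The SE is the fold change divided by the moderated t, and 95% intervals use the 10.9 total degrees of freedom. Averaged effects and differences between genotypes combined both fold changes and their SEs, with Benjamini-Hochberg adjustment over all genes. The scripts were tested on simulated data and run with Python 3.11.15, numpy 2.4.6, pandas 2.3.3 and scipy 1.17.1. Samples were grouped by genotype and treatment per the labels, and since the libraries are pools of different animals the p-values measure spread between pools.

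The members and lists were chosen with earlier results of these data known. Full statistics are given for members that were DEGs in either genotype, for the 5 of smallest p in each comparison, and for Mbp, Mog, Mag, Cnp, Mobp and Myrf, with all other members by fold change. Coordinates, exon lengths and overlaps came from GENCODE M21, where 13 of 17564 identifiers were not found, promoters from RefSeq. Levels per kb subtract the log2 of exon length in kb. Alternatives tried were the ordinary SE, centring by the median of each of 5 expression classes, a minimum mean expression of 1 log2 CPM, other p thresholds and other fold changes.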

Additional observations from a re-analysis of the deposited data

Results flagged for a closer look

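Gal3st1, the sulfatide-making sulfotransferase, was the 1 member of 37 (2.7%) that passed the uncorrected threshold in the test of the difference of the CORT effect between genotypes, a share near the 2.41% of all genes that passed it. The difference (BDNF het-Met minus WT) was -0.37 ± 0.149 on the log2 scale, computed from the fold changes of both genotypes, -0.41 in BDNF het-Met and -0.042 in WT mice. It did not pass adjustment over all genes, where the smallest adjusted p of a member was 0.99993.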

How the results depend on the processing

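The main counts of members were 0 DEGs in WT mice, 11 in BDNF het-Met mice, 12 for the average and 1 for the difference. With the ordinary SE the average gave 6 and BDNF het-Met mice 9. At an uncorrected p below 0.01 the counts were 5 in BDNF het-Met mice, 4 for the average and 0 for the difference, and at an adjusted p below 0.05 they were 0 in each. Without a fold change minimum WT mice gave 1 (Car2) and BDNF het-Met mice 14, and at a fold change above 1.5 BDNF het-Met mice gave 3. Centring and the expression minimum left each count within 1.5 times. The share of all genes was not computed at the ordinary SE, the stricter p, the fold change of 1.5, centring or the expression minimum. Counts at these settings therefore have no background beside them. Of 80 values for 20 named genes none reversed, and 8 lost the threshold with the ordinary SE, among them Mag, Cnp and Opalin in BDNF het-Met mice. With centring, Qdpr in WT mice and the average of Cnp passed and the average of Klk6 did not. No paired analysis was possible because the values used here are fitted across libraries, and leaving out each replicate was not run for the same reason. Which library carries a fall is therefore unknown.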
